A study of Arabidopsis thaliana with 12 samples.

Results

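TET9 (AT4G30430) and TET5 (AT4G23410) are genes of the tetraspanin family of Arabidopsis thaliana. They were chosen by the platform annotation and by their response, since TET9 was higher and TET5 lower with every elicitor than without one. Each is read by 1 probe set, 253632_at for TET9 and 254258_at for TET5, so they make up 2 of the 22746 probe sets tested. Expression was measured on Affymetrix ATH1 arrays in roots of Col-0 seedlings aged 7 days. The 12 arrays fall into 4 groups of 3 biological replicates: a control without elicitor, and roots held for 25 min with cellobiose, with chitin (named chito-oligomers in the series' design text) or with OGs. Cellobiose is the glucose disaccharide of cellulose, chito-oligomers are chains of N-acetylglucosamine as in fungal walls, and OGs are pectin fragments made of galacturonic acid. The labels name no mutant or transgene for any group and give no doses. The submitters screened the RNA by qRT-PCR of WRKY30 before the arrays were run, and what that screen does to the values below was not tested. The labels call the replicates biological without saying what set them apart, so p-values measure the spread between these samples.

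Tetraspanins are small proteins that cross the plasma membrane several times and gather other proteins into membrane microdomains. In Arabidopsis, TET8 and its close relative TET9 are known from sites of fungal infection, where TET8 marks extracellular vesicles that carry small RNAs into the fungus. TET5 and TET6 are a duplicated pair known to restrain organ growth redundantly. Other members act in patterning (TET1, also called TRN2), at plasmodesmata (TET3) or in sperm cells (TET11 and TET12).

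Levels below are on the log2 scale, as probe set intensities after GCRMA normalization by the authors. Array medians ran from 6.50 to 6.60. Replicates of a group correlated at 0.986 to 0.996 across probe sets. The root genes PYK10 (13.21 to 13.85 over the 12 arrays), EXPA7 (8.87 to 10.37) and EXPA18 (9.14 to 10.23) were read on every array. They are the 3 of 8 listed root markers to which the annotation used here assigns a probe set of their own. RCA, a leaf photosynthesis gene and the 1 of 5 listed shoot markers so measured, was at 9.63 to 11.53. It was at -0.97 log2 for cellobiose minus control (limma unadjusted p = 0.019, adjusted p = 0.13). It was at -0.27 with chitin and -0.40 with OGs, neither of which passed. Replicate 2 went the other way with each elicitor (0.45, 0.57 and 0.38 log2). RCA was at 10.48 on control replicate 2, against 11.53 and 11.33 on control replicates 1 and 3. The part of RCA in the results was not tested. In tissue samples such as these, a change in RNA per cell and a change in the share of cells that carry it cannot be told apart.

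TET9 was at 4.43, 3.91 and 3.94 on the 3 control arrays. It was at 8.07, 7.23 and 7.43 with cellobiose, at 7.24, 7.88 and 7.40 with chitin, and at 6.28, 5.43 and 6.72 with OGs. All 9 elicitor arrays lay above all controls, the ranges of the cellobiose and chitin arrays overlapped, and every OGs array lay below both of those groups. The group means were 4.09 ± 0.29 in controls, 7.58 ± 0.44 with cellobiose, 7.50 ± 0.33 with chitin and 6.14 ± 0.66 with OGs (SD, n = 3). In the paired fit this is a difference from control of 3.49 log2 with cellobiose (11.2-fold), 3.41 with chitin (10.7-fold) and 2.05 with OGs (4.14-fold), each ± 0.32 (SE). These differences chose the gene and carry no test here.

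The control level of TET9 was near the lower end of the array. Its control mean was at or above that of 22.8% of probe sets, against 63.6% with cellobiose, 62.6% with chitin and 45.3% with OGs. The files used here give no detection call, so whether that level exceeds background is not known, and the TET9 folds and ranks given here rest on it. The replicate pairs gave 3.64, 3.33 and 3.50 log2 with cellobiose, and 2.81, 3.97 and 3.46 with chitin. With OGs they gave 1.85, 1.52 and 2.78, the widest spread relative to the mean of the 3 elicitors. Without OGs replicate 3 the OGs difference was 1.69, and without OGs replicate 2 it was 2.38.

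TET5 was at 8.14, 8.19 and 8.37 in controls. It was at 6.96, 7.28 and 7.45 with cellobiose, at 6.93, 6.97 and 7.34 with chitin, and at 7.47, 7.94 and 7.57 with OGs. All 9 elicitor arrays lay below all 3 controls, and every OGs array lay above every cellobiose and chitin array. OGs thus lay between the controls and the other elicitors for both genes, while the lowest TET5 mean was with chitin and the highest TET9 mean with cellobiose. The means were 8.23 ± 0.12 in controls, 7.23 ± 0.25 with cellobiose, 7.08 ± 0.22 with chitin and 7.66 ± 0.25 with OGs (SD, n = 3). The differences from control were -1.00 log2 with cellobiose (2.01-fold lower), -1.16 with chitin (2.23-fold lower) and -0.58 with OGs (1.49-fold lower), each ± 0.13 (SE). As for TET9, they chose the gene and are given with no test.

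The TET5 replicate pairs gave -1.18, -0.91 and -0.92 log2 with cellobiose, and -1.21, -1.22 and -1.04 with chitin. With OGs they gave -0.67, -0.25 and -0.80. The smallest pair for both genes was OGs replicate 2, the array with the lowest TET9 and the highest TET5 of the 9 elicitor arrays. Cellobiose replicate 1 was the array with the highest TET9 of all, and control replicate 1 had the highest TET9 and the lowest TET5 of the controls. Without control replicate 1 the differences were 3.60, 3.52 and 2.16 for TET9 and -0.95, -1.10 and -0.52 for TET5 with cellobiose, chitin and OGs. Without OGs replicate 2 the TET5 difference with OGs was -0.73, and without OGs replicate 3 it was -0.43.

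**Figure D1:**
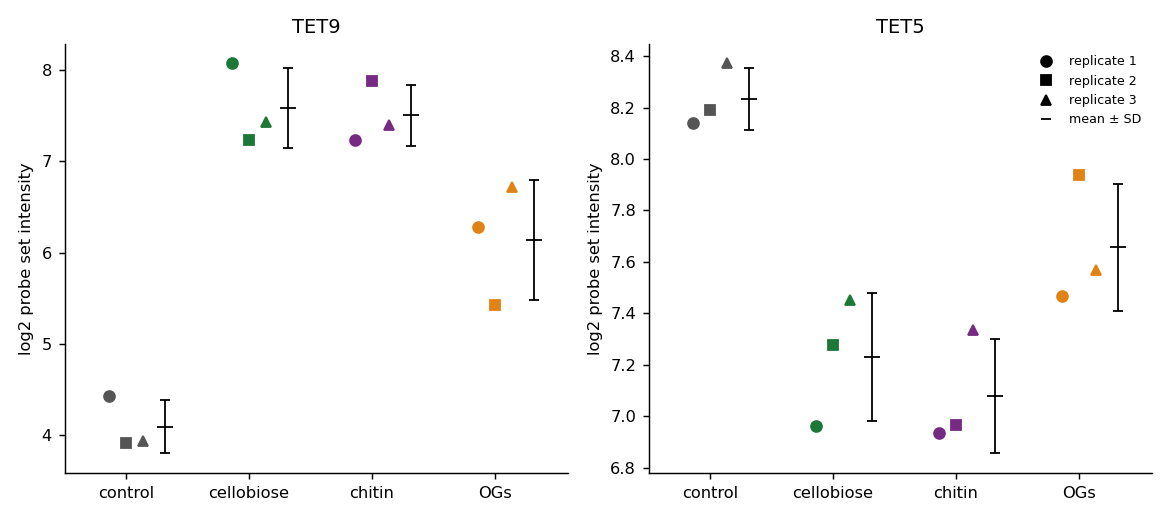
Log2 probe set intensity of TET9 (left) and TET5 (right) on each of the 12 arrays, by group. Marker shapes are the replicate numbers and the black bars are the mean ± SD of 3 arrays. TET9 runs from 4.09 in controls to 7.58 with cellobiose and TET5 from 8.23 to 7.08 with chitin, with OGs between the controls and the other elicitors for both. The vertical axes differ and do not start at 0.

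Over all probe sets, 4.73% were called higher with cellobiose and 3.91% lower (limma, adjusted p under 0.05), with 4.97% and 3.83% for chitin and 3.18% and 0.884% for OGs. Groups that did not overlap were more common than calls. With cellobiose 9.78% of probe sets lay wholly above the controls and 15.4% wholly below, with chitin 10.1% and 16.8%, and with OGs 8.18% and 10.6%. By size, TET9 ranked 92 of 22746 from the top with cellobiose, 120 with chitin and 176 with OGs. TET5 ranked 220, 116 and 540 from the bottom.

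The elicitors were also compared directly in the same fit. The genes were picked for opposite responses over all 4 groups, which can be read to cover these differences too, so for TET9 and TET5 the values describe the genes and support nothing further. TET9 did not separate cellobiose from chitin, at 0.08 log2 (95% interval -0.64 to 0.79; limma adjusted p = 0.98). It was higher with cellobiose than with OGs by 1.44 (0.72 to 2.16; adjusted p = 0.31) and higher with chitin than with OGs by 1.36 (0.65 to 2.08; adjusted p = 0.256), in 3 of 3 replicate pairs each time. The OGs arrays overlapped neither group, as was so for 3.83% (higher with cellobiose) and 4.72% (higher with chitin) of all probe sets. Neither difference passed the adjustment over all probe sets.

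TET5 was 0.15 log2 higher with cellobiose than with chitin (interval -0.14 to 0.44; adjusted p = 0.88). It was at -0.43 for cellobiose minus OGs (-0.72 to -0.13; adjusted p = 0.669) and at -0.58 for chitin minus OGs (-0.87 to -0.29; adjusted p = 0.221), lower than with OGs in 3 of 3 pairs each time, with no overlap, as for 5.08% and 4.89% of all probe sets. So no difference between elicitors passed for either gene. The same contrasts called 0.0176%, 0.044% and 0.106% of all probe sets for cellobiose against chitin, cellobiose against OGs and chitin against OGs. Doses may differ between the elicitors, so a smaller difference with OGs is a statement about these treatments as given.

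**Figure D2:**
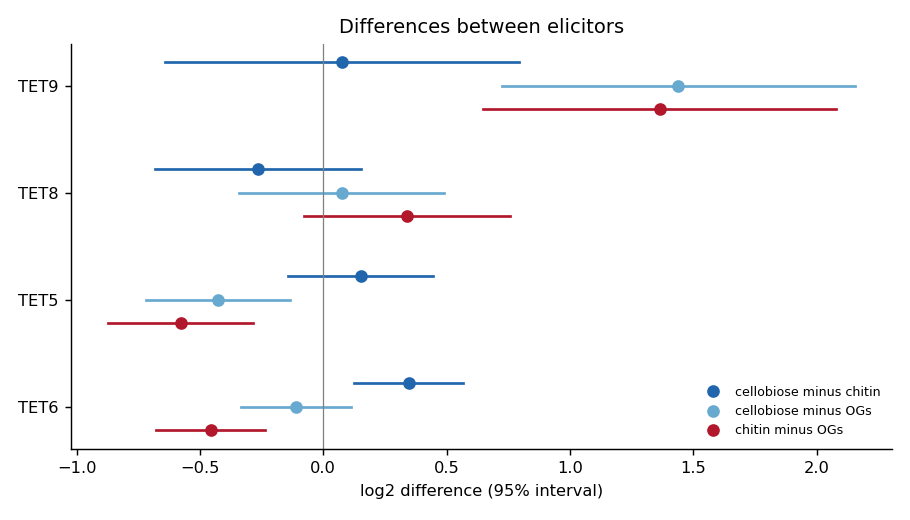
Log2 differences between elicitors with 95% intervals from the limma fit for TET9, TET8, TET5 and TET6. For TET9 the differences from OGs lie at 1.44 and 1.36, and for TET5 at -0.43 and -0.58. None of the 12 differences passed at an adjusted p under 0.05.

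The rest of the family was then examined. Of 17 tetraspanin genes listed, 15 were assigned a probe set of their own, and TET1 and TET17 were not analysed here. Of the 13 besides TET9 and TET5, 1 rose and 1 fell with cellobiose, 1 rose and 1 fell with chitin, and 0 passed with OGs (TET8, higher, and TET6, lower, at an unadjusted p under 0.05, as for 7.77% and 9.02% of all probe sets), where ordinary t tests also called 0. Over all probe sets, 8.64%, 8.8% and 4.06% were called with cellobiose, chitin and OGs in either direction, so for a list this short the counts lie near the background. At an unadjusted p under 0.05 (limma) there were 4 of the 13 with cellobiose and 5 with chitin. These were TET8 (higher), TET3, TET4 and TET6 (lower), and with chitin also TET13 (higher). Over all probe sets 8.14% were higher and 13.5% lower at that p with cellobiose, and 9.02% and 14% with chitin. The median difference of the 13 was -0.12, -0.05 and -0.10 log2, against -0.03, -0.04 and -0.03 over all probe sets.

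The gene that rose was TET8, the vesicle marker. It was at 12.06, 11.59 and 11.51 in controls, at 12.61, 12.23 and 12.63 with cellobiose, at 12.66, 12.98 and 12.63 with chitin, and at 12.27, 12.33 and 12.65 with OGs. All 9 elicitor arrays lay above the controls, with control replicate 1 the nearest to them. Per elicitor this was so for 9.78% (cellobiose), 10.1% (chitin) and 8.18% (OGs) of all probe sets. The share for all elicitors at once was not computed, and the comparisons share their controls. TET8 rose by 0.77 ± 0.18 log2 with cellobiose (SE; limma adjusted p = 0.033) and by 1.04 ± 0.18 with chitin (adjusted p = 0.0081). With OGs it was higher by 0.70 ± 0.18 and did not pass (adjusted p = 0.076). It was higher in 3 of 3 pairs with each elicitor.

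The TET8 calls depended on single arrays. With cellobiose, leaving out control replicate 2 gave an adjusted p of 0.116, and leaving out control replicate 3 gave 0.181. The adjusted p became 0.145 without cellobiose replicate 1 and 0.104 without cellobiose replicate 3, while the difference stayed between 0.63 and 0.96 log2. With chitin it was 0.0544 without control replicate 3, and with OGs it was 0.0358 without control replicate 1. Ordinary t tests called TET8 with no elicitor as deposited (adjusted p = 0.113 with cellobiose and 0.0546 with chitin). TET8 did not separate the elicitors: chitin minus OGs was 0.34 log2 (95% interval -0.08 to 0.76; adjusted p = 0.88).

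The gene that fell was TET6, the duplicate of TET5. It was at 7.87, 8.25 and 8.44 in controls and at 7.07, 7.63 and 7.68 with chitin, so the chitin arrays lay below all controls. With cellobiose it was at 7.66, 7.87 and 7.88, and with OGs at 7.64, 8.13 and 7.97, ranges that overlap the controls. TET6 fell by 0.73 ± 0.10 log2 with chitin (SE; limma adjusted p = 0.0019) and by 0.38 ± 0.10 with cellobiose (adjusted p = 0.045). With OGs it was at -0.27 ± 0.10 (adjusted p = 0.195). All 9 pairs were negative, but they share their controls, and the share of all probe sets for which this was so was not computed.

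For TET6 the chitin call held without any single array (highest adjusted p = 0.017) and ended only with spike-in scaling, described below. The cellobiose call ended with no replicate block (adjusted p = 0.303), and it held in 4 of 19 alternative settings. It was higher with cellobiose than with chitin by 0.35 log2 (95% interval 0.12 to 0.57; adjusted p = 0.758) and at -0.46 for chitin minus OGs (-0.68 to -0.24; adjusted p = 0.205), and neither passed. TET6 also moved with the replicate number, with replicates 2 and 3 higher than replicate 1 by 0.41 and 0.43 log2, though the test of the block did not pass (adjusted p = 0.078). For TET9 and TET5 that test gave adjusted p = 0.896 and 0.637, against 0.897% of probe sets called.

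**Figure D3:**
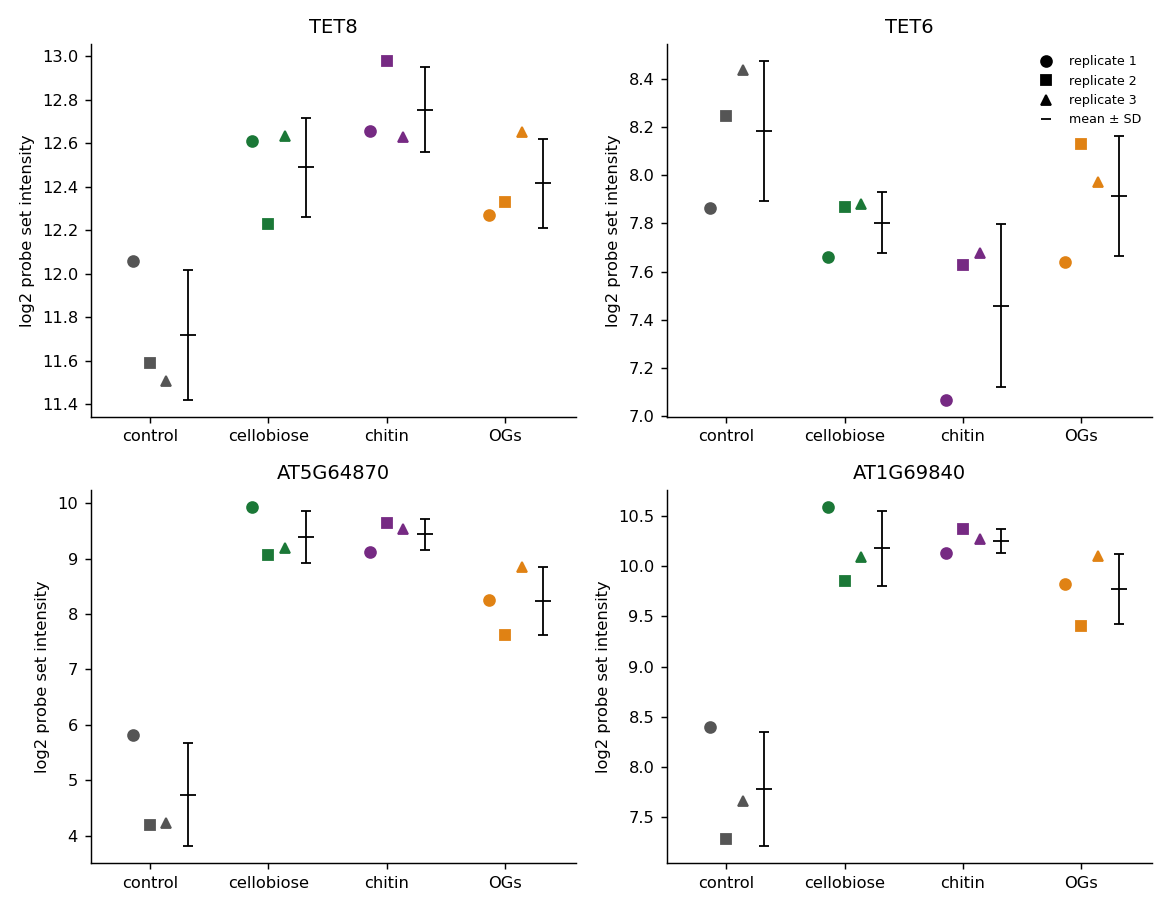
Log2 probe set intensity on each array of the tetraspanin genes TET8 and TET6 and of the loci AT5G64870 and AT1G69840 from the membrane microdomain list. Marker shapes are replicate numbers and bars are the mean ± SD of 3 arrays, and the vertical axes differ and do not start at 0. TET8 and both loci lie above the controls on all elicitor arrays, and TET6 lies below them on all chitin arrays.

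The other 11 members passed with no elicitor. TET3, the plasmodesmal member, was at 9.95, 10.48 and 10.37 in controls and between 9.85 and 10.10 on the 9 elicitor arrays, with differences of -0.28, -0.28 and -0.26 ± 0.12 log2 (SE; limma adjusted p = 0.224, 0.202 and 0.322). TET12 had the widest spread, from 5.76 to 7.02, and was at -0.55 ± 0.32 with chitin (adjusted p = 0.352). TET2 (9.14 to 9.99), TET7 (7.99 to 8.64) and TET10 (6.00 to 6.53) differed from control by at most 0.18 log2 on average. TET4, TET11, TET13, TET14, TET15 and TET16 lay between 3.50 and 4.33 on every array. Their means were below the 25th percentile of all probe sets (4.22), so for these 6 a level above background was not shown.

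**Figure D4:**
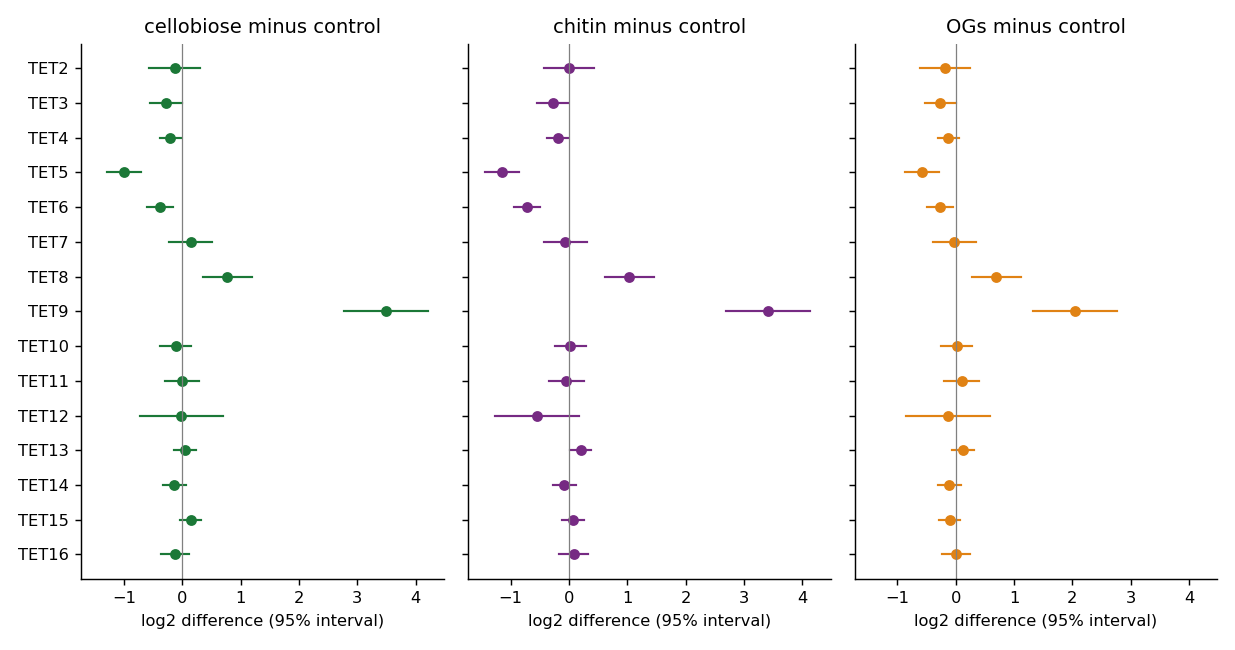
Difference from control in log2, with 95% intervals from the limma fit, of the 15 tetraspanin genes assigned a probe set of their own, for cellobiose, chitin and OGs on a shared axis. TET9 stands at 3.49, 3.41 and 2.05 and TET5 at -1.00, -1.16 and -0.58, both chosen by this measure. TET8 lies to the right and TET6 to the left in each panel.

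Lists of genes of membrane microdomains and of vesicle secretion gave context for the tetraspanins. Of 11 microdomain loci 7 were assigned a probe set of their own, and 2 of these rose with each elicitor while 0 fell (limma). The shares called higher over all probe sets were 4.73%, 4.97% and 3.18% with cellobiose, chitin and OGs. At an unadjusted p under 0.05, AT3G61260 (-0.31, -0.33 and -0.37 log2) and AT2G45820 (-0.34, -0.35 and -0.29) were lower with each elicitor. Over all probe sets 13.5% were lower at that p with cellobiose, 14% with chitin and 9.02% with OGs. AT5G64870 was at 5.81, 4.19 and 4.22 in controls, at 9.93, 9.06 and 9.19 with cellobiose, at 9.13, 9.64 and 9.54 with chitin, and at 8.25, 7.61 and 8.84 with OGs. It rose by 4.65, 4.70 and 3.50 ± 0.41 log2 (SE; adjusted p = 2.7e-04, 2.4e-04 and 0.003). AT1G69840 was at 8.40, 7.28 and 7.66 in controls and between 9.40 and 10.59 on the elicitor arrays. It rose by 2.40, 2.47 and 1.99 ± 0.23 log2 (adjusted p = 4.3e-04, 3.2e-04 and 0.003).

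The OGs calls of both loci ended in ordinary t tests on the values as deposited (adjusted p = 0.0626 for AT5G64870 and 0.0591 for AT1G69840), and that of AT5G64870 also when only the OGs and control arrays were fitted (0.0541). On control replicates 2 and 3 AT5G64870 lay at about the 25th percentile of all probe sets, so its differences also rest on a level not shown above background. Like TET9 and TET8, both were highest among the controls on replicate 1. The list's median difference was -0.07 log2 with cellobiose, -0.30 with chitin and -0.25 with OGs, below that of all probe sets. Of 17 vesicle and secretion genes only AT3G58510 and AT2G42520 were assigned a probe set of their own, and 0 passed with any elicitor (limma, 0 at an unadjusted p under 0.05). The other genes of that list were not analysed, so this is no result for the list as a whole.

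Probe sets whose log2 values followed each gene most closely over the 12 arrays were named from 1918 probe sets of 1 gene with an SD of at least 0.3. For TET9 these were AT1G15430 (Pearson correlation 0.989), AT5G14700 (0.989), AT4G28085 (0.988), PUB24 (0.986) and AT4G36550 (0.986). PUB24 encodes a ubiquitin ligase that restrains immune signalling, and it ran from 6.83, 6.94 and 7.14 in controls to 10.48 on cellobiose replicate 1, the array where TET9 was highest too. For TET5 they were SIM (0.978), AT4G28290 (0.970), AT3G01350 (0.967), AT4G28240 (0.967) and AT3G22970 (0.963). SIM encodes an inhibitor of cyclin-dependent kinases that promotes endoreduplication, and it was at 10.00, 10.52 and 10.73 in controls and at 8.49 on chitin replicate 2.

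These correlations describe 12 arrays that share their 4 groups, with the controls apart from the elicitor arrays. In all, 263 of the 1918 probe sets correlated with TET9 above 0.9 and 49 with TET5. With group means removed, the correlations of the named genes were 0.844 to 0.948 for TET9 and 0.802 to 0.931 for TET5. Those genes were picked by correlation on the same arrays, so these values partly follow from the pick and are no separate support. The same values over all 1918 candidates are not given here.

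**Figure D5:**
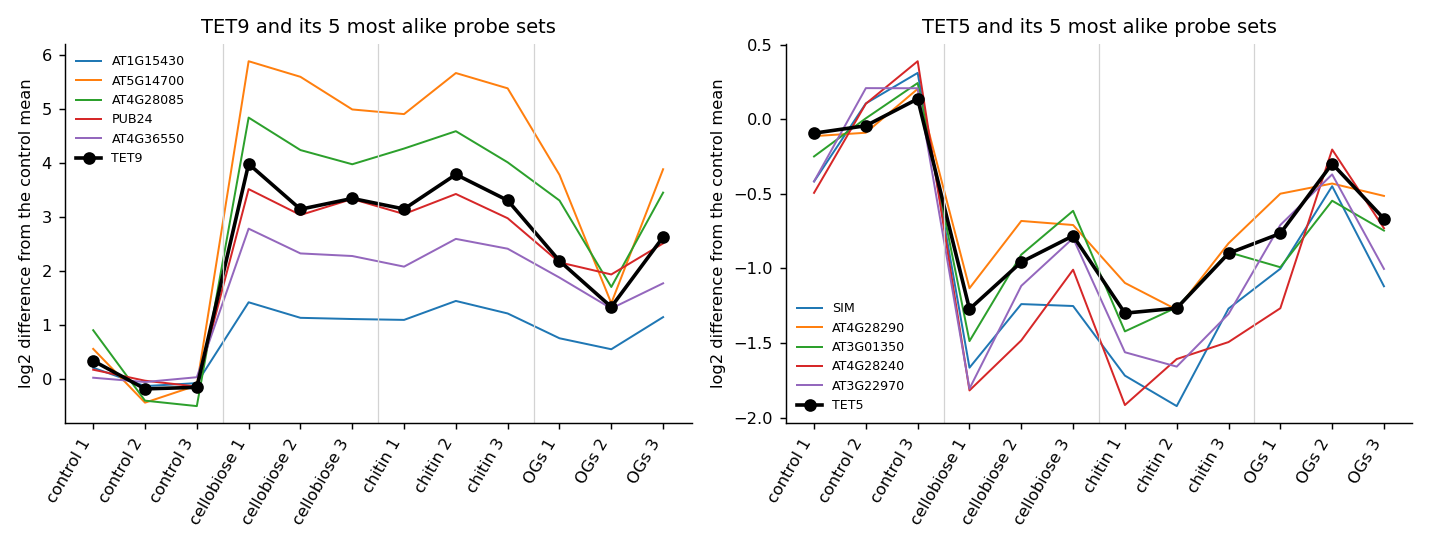
Log2 difference from the control mean on each array for TET9 (left, black) and TET5 (right, black) and the 5 probe sets most alike to each (colours). Lines join arrays to guide the eye only, since replicates have no order. OGs replicate 2 lies nearest to the controls among elicitor arrays for both TET9 and TET5.

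TET9 and TET5 lie on chromosome 4, at 14878783 to 14880331 and 12223953 to 12225508 in the RefSeq annotation of TAIR10.1, with lengths of 1549 and 1556 bases. TET9 shares 132 bases with the transporter gene UMAMIT34 and contains the 469 bases of the non-coding gene AT4G08285. TET5 overlaps none of its neighbours in that annotation. The position of the TET9 probes within the gene was not examined, and signal from those overlapping genes was not tested. The genes next to TET9 and TET5 on either side were assigned no probe set of their own by the annotation used here.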

How the data were processed

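Total RNA from roots was hybridized to 12 ATH1 arrays. The authors deposited log2 probe set intensities normalized with GCRMA, per the series' design text; Affymetrix Expression Console is named per the submitters' processing notes. Scanner files were not used here. Of 22810 rows, 64 control probe sets were kept apart. Gene names come from the platform annotation in GEO, which gives 1 gene for 13513 probe sets (59.4%), and from RefSeq (TAIR10.1) by gene ID. Only those probe sets were assigned to genes. A listed gene without one was not analysed, and whether the array reads it was not examined.

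One limma model (limma 3.58.1, R 4.3.3) held treatment and the replicate number as a block, since the design text takes ratios per sample pair, with Benjamini-Hochberg adjustment over 22746 probe sets, two-sided, called under 0.05. Same-numbered elicitor and control arrays deviated from their group means with correlations of 0.07 to 0.59, except -0.17 for cellobiose replicate 2. Most thus deviated alike to some degree, though the numbers alone do not establish pairing. Scripts were checked on simulated data. The members, lists and tests were chosen with earlier results of these data known, and support nothing by themselves. The named genes were every tetraspanin, up to 4 called genes per list, the 5 most alike probe sets, and adjacent genes. Alternatives were no block, leaving out each array, fitting 2 groups, another variance moderation and median scaling. Others were spike-in scaling (with ordinary t tests), ordinary t tests without scaling and a filter on dim probe sets. Arrays carry no depth, and their number limits the precision.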

Additional observations from a re-analysis of the deposited data

How the results depend on the processing

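TET9 and TET5 kept their direction against control in all 19 alternatives, and no difference of either gene between elicitors passed in any of them. Without single arrays TET9 lay between 3.28 and 3.61 log2 with cellobiose, 3.02 and 3.71 with chitin and 1.69 and 2.38 with OGs. Poly-A spike-in scaling, with 24 probe sets and ordinary t tests, moved the median of all probe sets to 0.34, 0.17 and 0.20 log2 with cellobiose, chitin and OGs. The spike-in mean was 7.28 on control replicate 1, against 6.80 on control replicate 2 and 6.80 on control replicate 3. It ran from 6.42 to 6.90 on the elicitor arrays, lowest on cellobiose replicates 1 (6.48) and 3 (6.42). The scaled values below thus lean on control replicate 1 and, with cellobiose, also on those cellobiose arrays. TET5 was then at -0.63, -0.95 and -0.35 log2, or -0.97, -1.11 and -0.55 relative to that median. TET6 was at -0.00, -0.52 and -0.04 (-0.35, -0.69 and -0.24 relative to it), and its chitin call ended (adjusted p = 0.538). The cause of the shift was not tested.

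The calls against control with cellobiose, chitin and OGs were 1966, 2002 and 924. They were 1006, 1111 and 79 in ordinary t tests on the values as deposited. Spike-in scaling, also with ordinary t tests, gave 938 (932 higher, 6 lower), 730 (715 and 15) and 296 (296 and 0). The scaled counts thus compare with the ordinary t tests and not with the limma counts. Fitting only OGs and control gave 146. Without single arrays the counts were 773 to 2161, 879 to 2313 and 207 to 1369, lowest without control replicate 3 each time. Between elicitors (4 for cellobiose against chitin, 10 for cellobiose against OGs, 24 for chitin against OGs) they were 2 to 8, 1 to 29 and 2 to 105 without single arrays, highest without OGs replicate 3. They were 0, 0 and 0 with only the 2 groups or with spike-in scaling (limma and ordinary t tests; 474, 476 and 437 at an unadjusted p under 0.05 after scaling), and 0, 0 and 1 in ordinary t tests. Cellobiose against OGs gave 19 with no replicate block.

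Of the 13 other tetraspanins, 2 were called with cellobiose and 2 with chitin. With cellobiose it was 1 with no replicate block, with only the 2 groups, with trended moderation and with arrays at the same median, 0 with spike-in scaling and in ordinary t tests, and 0 to 2 without single arrays. With chitin it was 1 with spike-in scaling, 1 in ordinary t tests, and 1 to 3 without single arrays, where TET12 passed without OGs replicate 3 (adjusted p = 0.0268), as it did with only chitin and control arrays (0.0494). With OGs it was 0, and 1 without control replicate 1. TET8 with cellobiose passed in 13 of 19 alternatives (adjusted p 0.017 to 0.181) and with chitin in 17 of 19 (0.0038 to 0.0546). The likeness of the named genes stayed above 0.9 without any single array and under both scalings, which were added after seeing the data.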
